A study of Mus musculus with 14 samples.

Results

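The genes described here are the 33 mouse genes that encode fibroblast growth factors (FGFs), their receptors and the inhibitors that FGF signalling induces against itself. They were taken by symbol from 6 lists of chromatin regions that the authors called as differing in accessibility, and comprise 22 ligand, 5 receptor and 6 feedback inhibitor genes. Of the 33, 21 had a region in at least 1 list, among 6687 genes of any type that had one. The RefSeq table used for comparison holds 21896 protein-coding genes. Shares over those genes are given below for each list and not for this pooled count, from which nothing is drawn. The assay was ATAC-seq, where Tn5 transposase inserts sequencing adapters into open DNA, and the cells were erythro-myeloid progenitors sorted from the yolk sac of C57BL/6 mouse embryos at E10.5. Each library was made from 500 cells. All 14 samples, controls included, were homozygous for floxed Ezh2 (Ezh2fl/fl), which encodes the histone methyltransferase of Polycomb repressive complex 2. The 5 Tie2 KO samples carried 1 copy of a Tie2-Cre transgene (Tie2-CreTg/+), which is active in endothelium and in the blood cells that arise from it. The 3 Tie2 WT samples had no transgene in that line (Tie2-Cre+/+). The 3 Vav KO samples carried 1 copy of Vav-Cre (Vav-CreTg/+), which is active in blood cells. The 3 Vav WT samples (Vav-Cre+/+) enter none of the lists, so Vav KO was set against the Tie2 WT samples. Whether samples of a group came from separate embryos is not stated in the labels, so the adjusted p-values may measure technical spread only.

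Most FGFs are secreted proteins that bind receptor tyrosine kinases together with heparan sulfate. The receptors then signal through the adaptor Frs2 to Ras and the ERK kinases. ERK signalling induces the Sprouty and Spred proteins, which act back on Ras and Raf, and the phosphatase Dusp6, which switches ERK off. Most ligands are made by small groups of cells in the embryo, and many of their promoters are known Polycomb targets in cells that do not use them. FGF signals are known in the yolk sac for their part in forming mesoderm and the earliest blood and endothelial cells.

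The promoter windows of 8 members are shown because the results turn on gene starts, and they let a reader compare members that gained accessibility there with members that had no call. The sequences and their positions are from RefSeq for GRCm38.p6, and each runs from 250 bases before to 50 bases after a gene start, 5′ to 3′ on the gene's strand. Capitals mark the dinucleotide CG, the site of DNA methylation in mammals. The following 6 members, in falling order of fold change, had a region over the gene start that was more open in Tie2 KO than in Tie2 WT. The windows lie at chr7:144861136-144861435 for Fgf4 (plus strand), chr7:130266759-130267058 for Fgfr2 (minus strand), chr13:55152568-55152867 for Fgfr4 (plus strand), chr14:58072436-58072735 for Fgf9 (plus strand), chr11:69802231-69802530 for Fgf11 (minus strand) and chr7:144838362-144838661 for Fgf3 (plus strand).
Fgf4: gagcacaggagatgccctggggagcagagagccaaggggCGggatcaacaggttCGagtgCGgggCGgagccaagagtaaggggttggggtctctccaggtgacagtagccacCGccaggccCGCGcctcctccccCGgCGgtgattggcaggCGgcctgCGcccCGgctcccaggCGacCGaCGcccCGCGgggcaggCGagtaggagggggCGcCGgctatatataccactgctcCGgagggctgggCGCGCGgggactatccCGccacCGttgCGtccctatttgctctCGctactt
Fgfr2: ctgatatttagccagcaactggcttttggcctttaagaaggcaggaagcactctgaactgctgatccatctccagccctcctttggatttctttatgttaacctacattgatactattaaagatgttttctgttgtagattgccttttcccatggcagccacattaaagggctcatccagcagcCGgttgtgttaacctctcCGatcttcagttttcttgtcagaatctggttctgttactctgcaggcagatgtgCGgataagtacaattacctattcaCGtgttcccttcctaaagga
Fgfr4: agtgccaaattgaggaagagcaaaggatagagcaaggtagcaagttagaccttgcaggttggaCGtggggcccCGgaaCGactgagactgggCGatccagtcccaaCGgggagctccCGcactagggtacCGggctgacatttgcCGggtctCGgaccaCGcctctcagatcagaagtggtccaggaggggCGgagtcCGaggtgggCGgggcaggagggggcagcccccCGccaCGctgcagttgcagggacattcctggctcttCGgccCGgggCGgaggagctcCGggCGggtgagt
Fgf9: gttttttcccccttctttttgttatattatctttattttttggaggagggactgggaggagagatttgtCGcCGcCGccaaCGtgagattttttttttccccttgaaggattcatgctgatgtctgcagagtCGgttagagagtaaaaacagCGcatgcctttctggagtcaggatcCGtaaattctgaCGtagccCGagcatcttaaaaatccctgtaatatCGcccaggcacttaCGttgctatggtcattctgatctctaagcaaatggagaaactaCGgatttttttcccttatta
Fgf11: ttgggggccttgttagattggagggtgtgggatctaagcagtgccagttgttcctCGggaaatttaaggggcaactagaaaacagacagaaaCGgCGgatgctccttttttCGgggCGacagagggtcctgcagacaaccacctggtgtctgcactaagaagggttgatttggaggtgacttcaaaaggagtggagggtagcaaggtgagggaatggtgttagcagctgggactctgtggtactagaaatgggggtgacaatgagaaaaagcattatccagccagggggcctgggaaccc
Fgf3: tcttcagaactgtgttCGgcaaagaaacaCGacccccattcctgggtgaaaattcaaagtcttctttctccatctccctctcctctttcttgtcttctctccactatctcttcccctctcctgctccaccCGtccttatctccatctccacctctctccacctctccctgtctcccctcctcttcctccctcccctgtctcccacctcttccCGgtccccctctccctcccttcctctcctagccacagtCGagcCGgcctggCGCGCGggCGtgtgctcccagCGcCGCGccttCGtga

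For contrast, Fgf6 and Fgf7 had no region in any list. Their windows lie at chr6:127015292-127015591 for Fgf6 (plus strand) and chr2:126034408-126034707 for Fgf7 (plus strand).
Fgf6: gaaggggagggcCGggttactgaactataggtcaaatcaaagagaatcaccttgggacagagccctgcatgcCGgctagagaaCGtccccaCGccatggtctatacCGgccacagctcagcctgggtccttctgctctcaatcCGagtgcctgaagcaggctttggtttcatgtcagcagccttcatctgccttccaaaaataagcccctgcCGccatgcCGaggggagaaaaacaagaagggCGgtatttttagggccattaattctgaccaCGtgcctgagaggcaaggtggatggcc
Fgf7: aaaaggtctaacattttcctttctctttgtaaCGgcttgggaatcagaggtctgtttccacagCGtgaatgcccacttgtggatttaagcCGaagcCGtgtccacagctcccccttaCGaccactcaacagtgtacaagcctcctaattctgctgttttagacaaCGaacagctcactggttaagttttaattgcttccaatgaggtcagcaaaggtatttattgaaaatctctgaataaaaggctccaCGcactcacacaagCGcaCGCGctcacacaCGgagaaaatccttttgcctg

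CG content did not run in parallel with the calls among the windows shown. The 6 windows with a call held from 4 CG in Fgfr2 to 28 in Fgf4, and those of Fgf6 and Fgf7 held 10 and 11. The windows of Fgf4, Fgfr2, Fgf9, Fgf11 and Fgf3 lay wholly inside the called region, whereas 66 of the 300 bases of the Fgfr4 window did. The Fgf11 window is that of a RefSeq start 564 bp from the gene start used in the lists. RefSeq windows matched 25 of the 33 members by symbol. Among all 21262 windows of protein-coding genes the median was 13 CG, and among the 1376 that a region more open in Tie2 KO than in Tie2 WT overlapped it was 18. Of the 25 members, 7 windows were overlapped by such a region, with a median of 14 CG, and 18 were not, also with a median of 18. The 18 include Fgf14, whose RefSeq window lies 484581 bp from the gene start used in the lists and so was not printed and does not speak of the region described below.

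Among feedback inhibitors, Spry4, which had calls described below, has no RefSeq window, so the windows do not cover the role as a whole. The 5 with a RefSeq window, Spry1, Spry2, Spred1, Spred2 and Dusp6, held a median of 28 CG, with Spred1 at 40 and Spred2 at 17. None of these windows had a call, where 1376 of all 21262 windows overlapped a region more open in Tie2 KO than in Tie2 WT. The 16 ligand windows had a median of 12 CG and ranged from 3 in Fgf13 to 47 in Fgf18. The 4 receptor windows ranged from 4 in Fgfr2 to 37 in Fgfrl1. The motif CCGGAA, which holds the core of sites bound by ETS factors, was searched on both strands and was present in 4 of 25 member windows (16%) and in 18.7% of all protein-coding windows. Those 4 were Fgf5, Fgfr4, Fgfrl1 and Spry2. The motif TATAAA, also on both strands, was present in the windows of Fgf5 and Fgf21 and in 12.6% of all windows. Over all genes CCGGAA was present in 9.5% of windows overlapped by a region more open in Tie2 KO than in Tie2 WT, in 28.4% of those overlapped by a less open one and in 19.3% of the others. The motif searches describe letters only.

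**Figure D1:**
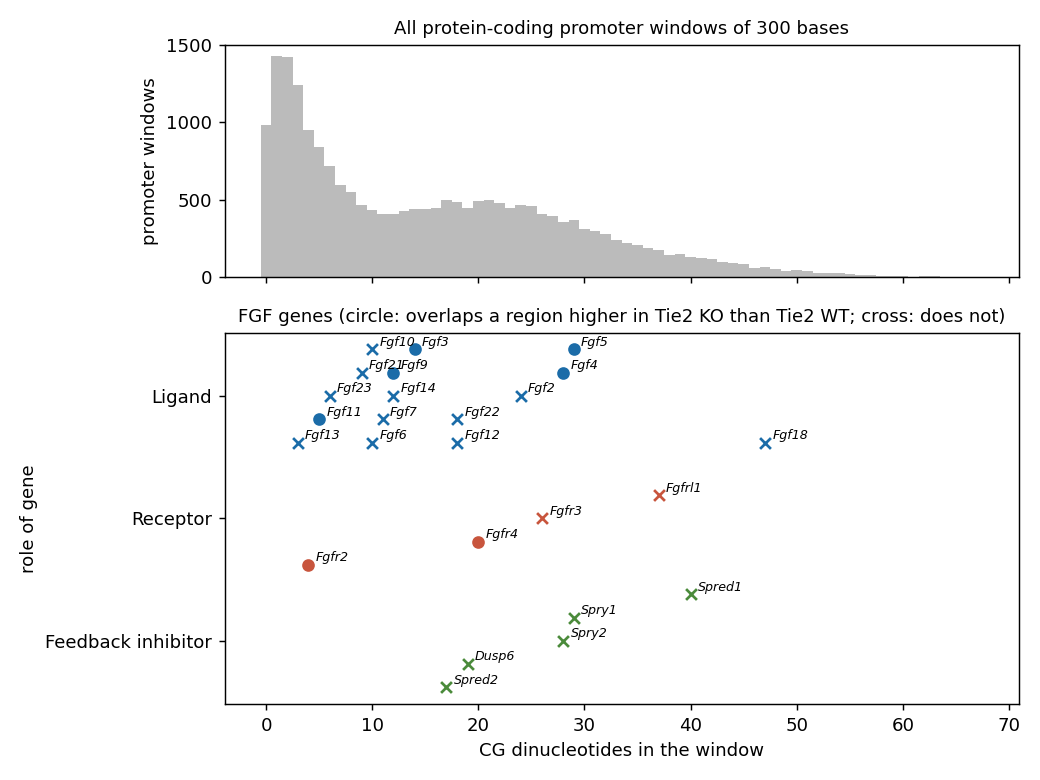
CG dinucleotides in promoter windows of 300 bases: the upper panel counts windows of all protein-coding genes (y axis) by their number of CG (x axis), and the lower panel places each of 25 FGF genes by the same number, in rows by role. Circles, which overlap a region more open in Tie2 KO than in Tie2 WT, spread from 4 CG at Fgfr2 to 29 at Fgf5. The feedback inhibitors shown are crosses at 17 or more, and Spry4, which had calls, has no window.

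The lists give 1 log2 fold change and 1 adjusted p-value per region, with no value per sample. Replicate spread and depth are therefore unknown, and the authors' adjusted p is the error given for each region. A change in accessibility may reflect more cells with an open region or a more open region in each cell, which bulk libraries cannot tell apart. Regions in the lists cover a gene start or lie at most 5 kb upstream, and enhancers farther from FGF genes are not included. Ezh2 had no region in any list, so its deletion cannot be checked here. Tek, whose regulatory sequence drives Tie2-Cre, had a log2 fold change of 2.9 in Tie2 KO against Tie2 WT, in the authors' deposited table. Vav1 had 0.81 in Vav KO against Tie2 WT and -0.9 in Tie2 KO against Vav KO, in the authors' deposited table. Only Tie2 KO samples carry Tie2-Cre and only Vav KO samples carry Vav-Cre. Reads from any transgene copies of Tek or Vav1 sequence therefore cannot be told from a change at the gene. Of 12 markers of erythro-myeloid progenitors, 0 had a called region between Tie2 KO and Tie2 WT. Over all protein-coding genes 11.5% had a higher region and 2.51% a lower one, so 0 of 12 says little. The lists hold no levels against which the cell type could be checked.

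Setting Tie2 KO beside Tie2 WT addresses which FGF genes differ in accessibility between Ezh2fl/fl samples with and without Tie2-Cre. The presence of Cre and the deletion of Ezh2 cannot be told apart in this comparison. Accessibility was higher at 14 of 33 genes (42.4%), and 0 had a lower region. By role these were 9 of 22 ligands, 4 of 5 receptors and 1 of 6 feedback inhibitors. Over all 21896 protein-coding genes of the RefSeq table, 11.5% had a higher region nearby and 2.51% a lower one. The 15 regions of the 14 genes had log2 fold changes from 0.71 to 1.9 with a median of 0.94, against a median of 1.02 over all 2959 higher regions of the authors' deposited table. Their adjusted p-values ran from 6.31e-08 at Fgf20 to 0.000429 at Fgfr4 in the authors' deposited table.

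**Figure D2:**
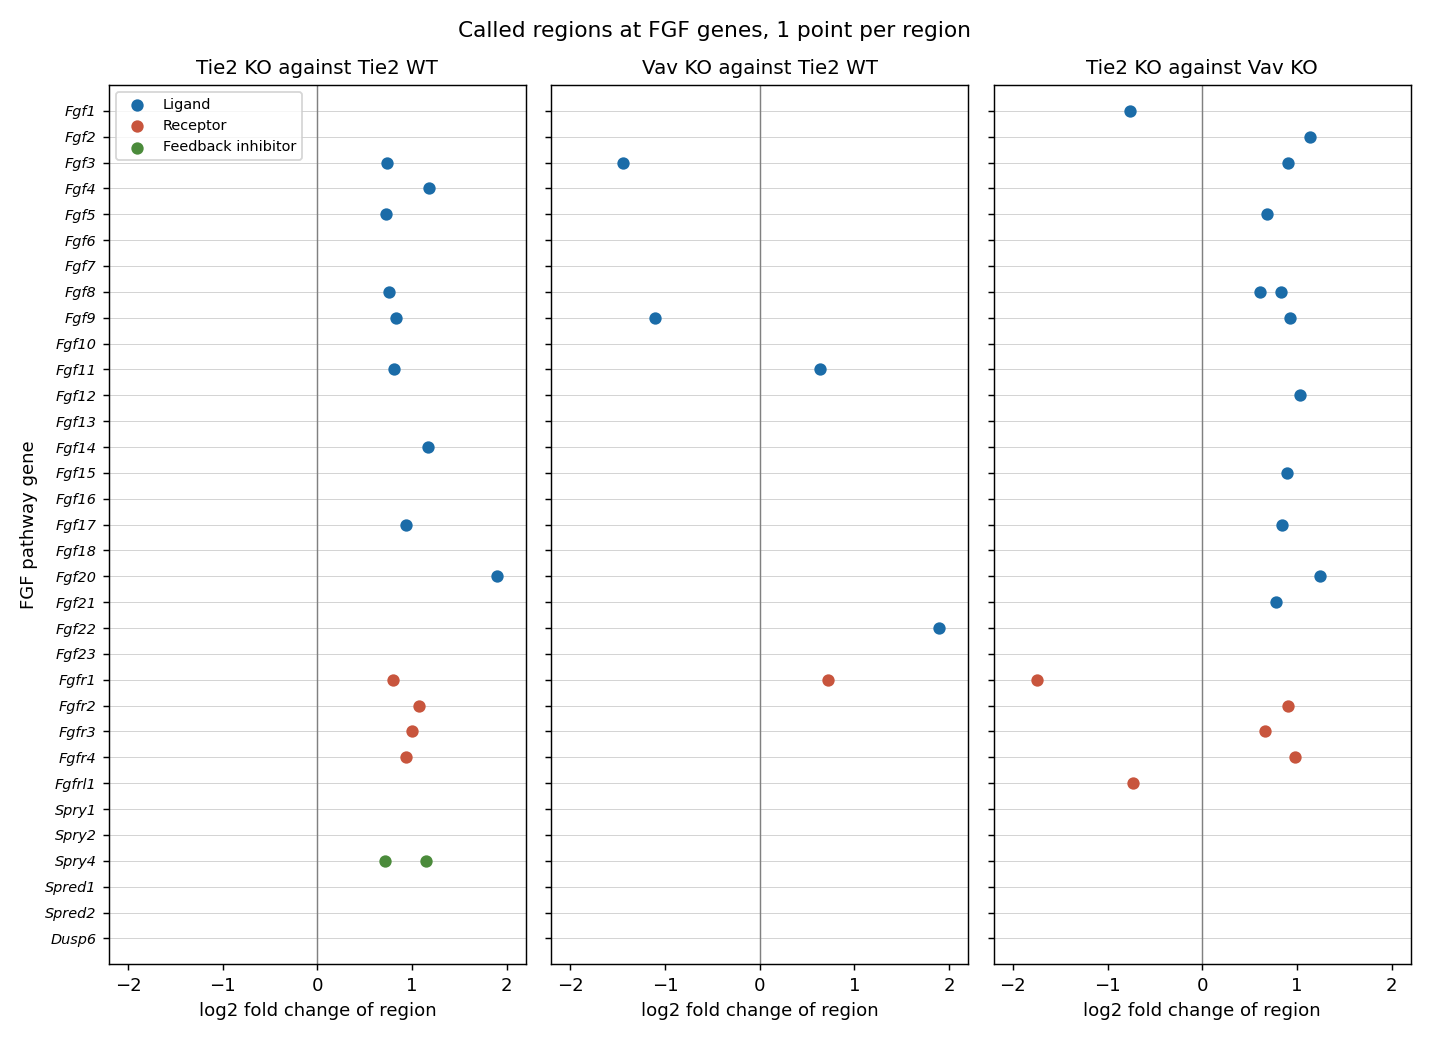
Log2 fold change (x axis) of each called region at the 33 FGF genes (y axis, grouped by role) in the 3 comparisons, with 1 point per region and no point where a gene had no call. All 15 points of Tie2 KO against Tie2 WT lie between 0.71 and 1.9, whereas the 5 points of Vav KO against Tie2 WT lie on either side of 0.

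Among ligands the largest value was at Fgf20 (gene 80857), which acts in development of the inner ear and kidney. Its region, chr8:40285302-40287600 in mm10, covered the gene start and had a log2 fold change of 1.9, or 3.73-fold, per the authors' deposited table. It ranked 96 among the 2959 higher regions, above 96.7% of them, and the next FGF region, that of Fgf4, was above 65.9%. Fgf9 (gene 14180), of the same subfamily and needed for lung and testis development, had a region over its start at chr14:58072402-58073900 with a log2 fold change of 0.83 and an adjusted p of 6.38e-05, per the authors' deposited table. Fgf16, the remaining gene of that subfamily, had no region in any list.

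Fgf3 and Fgf4 lie beside Fgf15 within 62.3 kb of chromosome 7, and both were called. Fgf4 (gene 14175), a signal of the inner cell mass and limb bud, had a region of 2699 bp at chr7:144860902-144863600. It extended from 484 bp upstream to 2214 bp downstream of the gene start and had a log2 fold change of 1.18 with an adjusted p of 1.22e-07, per the authors' deposited table. At Fgf3 (gene 14174), which acts in inner ear and tail development, the region chr7:144837502-144839100 had a log2 fold change of 0.74 and an adjusted p of 5.11e-06, per the authors' deposited table. Fgf15, an endocrine factor that restrains bile acid synthesis, had no call here. A region upstream of the cell cycle gene Ccnd1, which begins 39.5 kb beyond the end of Fgf15, was higher, with a log2 fold change of 0.92, per the authors' deposited table.

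Fgf8 and Fgf17, which pattern the midbrain and other parts of the embryo, were called and Fgf18 of their subfamily was not. The region of Fgf8 (gene 14179) covered its start at chr19:45741802-45743600, with a log2 fold change of 0.76, per the authors' deposited table. That of Fgf17 (gene 14171) lay 2033 bp upstream, at chr14:70644302-70645600, with a log2 fold change of 0.94, per the authors' deposited table. It was the single ligand region that missed the gene start, since 8 of 9 covered it. Fgf5 (gene 14176), which ends the growth phase of hair, had a region over its start at chr5:98253402-98254500 with a log2 fold change of 0.73, per the authors' deposited table.

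Fgf11 and Fgf14 belong to the homologous factors that stay inside the cell and bind voltage-gated sodium channels. The 4 genes of that subfamily are counted as ligands in every ligand share here. The start of Fgf14 (gene 14169) lay in a region of 3099 bp, chr14:124674902-124678000, with a log2 fold change of 1.17 and an adjusted p of 1.02e-07, per the authors' deposited table. Fgf11 (gene 14166) had the widest FGF region of this comparison, 4399 bp at chr11:69798302-69802700, with a log2 fold change of 0.81, per the authors' deposited table. That region was also paired with Chrnb1, an acetylcholine receptor subunit gene which RefSeq places 101 bp from Fgf11, and with G630025P09Rik, so it cannot be assigned to 1 gene. Fgf12 and Fgf13 of this subfamily had no call here. The 13 ligands without a call were Fgf1, Fgf2, Fgf6, Fgf7, Fgf10, Fgf12, Fgf13, Fgf15, Fgf16, Fgf18, Fgf21, Fgf22 and Fgf23. They include all of the Fgf1/2 and the endocrine Fgf15/21/23 subfamilies, of 2 and 3 genes. As 11.5% of all protein-coding genes had a higher region, 0 calls among so few genes says little.

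All 4 signalling receptors were called, with log2 fold changes that spanned 0.80 to 1.07. Fgfr2 (gene 14183), the receptor of epithelia and of limb and lung outgrowth, had the highest value, at chr7:130264702-130267400, with a log2 fold change of 1.07 and an adjusted p of 2.71e-07, per the authors' deposited table. Fgfr3 (gene 14184), which restrains bone growth, had a log2 fold change of 1.0, per the authors' deposited table, in a region 823 bp upstream of its start at chr5:33719702-33720900. Fgfr4 (gene 14186), the receptor for endocrine FGFs in liver, had 0.94 in the authors' deposited table, at chr13:55152802-55153900, a region that began only 16 bp before the gene start. Fgfr1 (gene 14182), the main receptor of early mesoderm, had 0.80 in the authors' deposited table, in a region centred on its start at chr8:25517702-25519800 that reached 1057 bp upstream and 1041 bp downstream. Fgfrl1, a receptor that lacks the kinase domain, had no call in this comparison.

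Of the feedback inhibitors, Spry4 (gene 24066), a Sprouty protein that restrains Ras signalling, was the single gene with a call. It had a pair of regions on chromosome 18, and it was the single member with more than 1 region in this comparison. The region over its start, chr18:38599302-38601300, had a log2 fold change of 0.71, and the one 1533 bp upstream, chr18:38602802-38604400, had 1.15, in the authors' deposited table. The upstream region overlaps the RefSeq gene Arhgap26, which is annotated 269 bp from Spry4. Spry1, Spry2, Spred1, Spred2 and Dusp6 had no region in any of the 6 lists.

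A log2 fold change of at least 1, a doubling, was reached at 6 of 33 members (Fgf20, Fgf4, Fgf14, Spry4, Fgfr2 and Fgfr3), against 6.2% of all protein-coding genes, and in the lower direction at 0 members and 0.808% of genes. A higher region over the gene start was present at 12 members and 7.1% of genes, and a lower one at 0 members and 0.384% of genes. Member regions lay over gene starts in 12 of 15 cases (80%), and 55.6% of all 2959 higher regions covered a start. Their median width was 1799 bp, against 1599 bp over all higher regions, and whether width had a part in that share was not tested. Of 24 protein-coding genes that flank the called members and are no FGF members, 4 had a higher region, against 11.5% of all protein-coding genes (Ano1 beside Fgf3, Prdm8 beside Fgf5, Chrnb1 beside Fgf11 and Dmtn beside Fgf17). Another 2 flanking genes had a lower region, against 2.51% of all genes, namely Micu2 beside Fgf9 and Micu3 beside Fgf20. Of 35 genes that flank the members without a call, 1 had a higher and 0 a lower region. Chrnb1 shares its region with Fgf11.

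**Figure D3:**
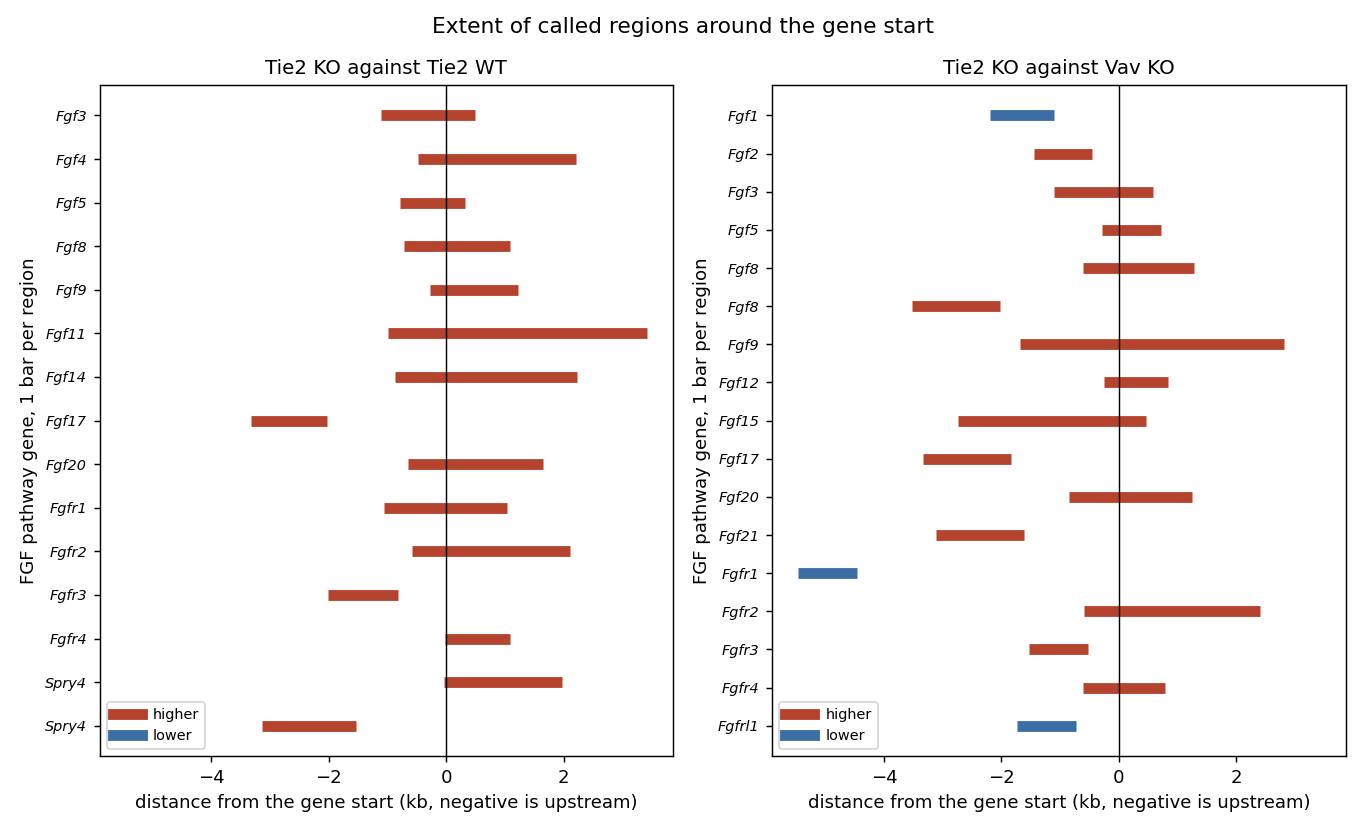
Extent of each called region around the start of its FGF gene (x axis, kb from the gene start, negative upstream) in Tie2 KO against Tie2 WT (left) and Tie2 KO against Vav KO (right), with 1 bar per region in rows by gene. Bars cross the gene start for 12 of 15 regions on the left and for 9 of the 14 higher regions on the right, and the 3 lower regions on the right all lie upstream.

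Genes of other cell types were called as well. Of 10 mesoderm and mesothelium markers, 8 had a region more open in Tie2 KO than in Tie2 WT, with log2 fold changes from 0.7 at Twist1 to 2.15 at Twist2 in the authors' deposited table. Of 9 yolk sac endoderm markers 3 were higher, and of 10 endothelial markers 4 were higher, Tek among them, and 1 was lower. Over all protein-coding genes 11.5% had a higher region and 2.51% a lower one. The endoderm markers called were Krt19 at 1.21, Cdh1 at 0.92 and Foxa2 at 0.82 in the authors' deposited table. Afp, Apoa1, Ttr, Hnf4a and Epcam of the endoderm list had no region in any list, nor had Col1a1 or Acta2 among the mesoderm markers, and a missing call gives no level. Whether other cells in the sort had a part in the FGF result was not tested.

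In Vav KO against Tie2 WT few FGF genes were called, and they went in either direction. A higher region lay near 3 of 33 genes (9.1%, against 5.29% of all protein-coding genes) and a lower one near 2 (6.1%, against 2.59%). These shares rest on 5 regions. A doubling was reached by 1 higher and 2 lower members (3.79% and 1.89% of all genes), and a region over the start by 1 and 1 (0.881% and 0.411%). Without the regions shared with other genes 1 member was higher and 2 were lower (4.76% and 2.35% of all genes), and without the narrowest regions, of 999 bp, 1 and 1 (3.06% and 1.22%). The higher genes were Fgf22, Fgf11 and Fgfr1, the lower ones Fgf3 and Fgf9, and 0 of 6 feedback inhibitors had a call. The same Tie2 WT samples served as controls here and in the previous comparison, and the Cre line and the genotype cannot be told apart.

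Fgf22 (gene 67112), a factor that acts in the forming of synapses, had the largest change among the FGF regions of this comparison, above 82.6% of all higher regions in it. Its region, chr10:79750302-79751300, lay 3818 bp upstream and was also paired with Polrmt, the mitochondrial RNA polymerase gene. Its log2 fold change was 1.89 with an adjusted p of 0.000199, per the authors' deposited table. At Fgf11 a region of 999 bp over the start, chr11:69801702-69802700, had a log2 fold change of 0.64, per the authors' deposited table, and it lies inside the wider region called in Tie2 KO. This Fgf11 region reached only 14 bp past the gene start and was also paired with G630025P09Rik, so it cannot be assigned to 1 gene. At Fgfr1 the called region was not that of the gene start. It lay 3758 bp upstream at chr8:25513202-25515000, with a log2 fold change of 0.72, per the authors' deposited table.

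Among genes of other cell types, 1 of 10 mesoderm and mesothelium markers was higher and 1 lower, 0 of 10 endothelial markers were called, and 1 of 9 yolk sac endoderm markers was lower, where all protein-coding genes stand at 5.29% higher and 2.59% lower. These were Twist2 at 1.33, Pdgfra at -1.57 and Foxa2 at -1.53 in the authors' deposited table. Of the 12 progenitor markers, Csf1r was higher and Gata2 lower.

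Both lower genes were ones that had been called higher in Tie2 KO against the same controls. The start of Fgf9 lay in chr14:58072502-58073500, with a log2 fold change of -1.11 and an adjusted p of 0.000681, per the authors' deposited table. This region lies inside the one that had 0.83 in Tie2 KO. At Fgf3 the lower region was another one, chr7:144836202-144837400, whose end lies 101 bp before the start of the region called in Tie2 KO. Its log2 fold change was -1.44 in the authors' deposited table.

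The knockouts were also compared with each other directly. Accessibility was higher in Tie2 KO at 13 of 33 FGF genes (39.4%, against 11.1% of all protein-coding genes) and lower at 3 (9.1%, against 6.35%). The higher genes were 10 of 22 ligands and 3 of 5 receptors, the lower ones 1 ligand and 2 receptors, and no feedback inhibitor was called. The 14 higher regions had a median log2 fold change of 0.905 (range 0.61 to 1.24), against 1.16 over all 2873 higher regions of the authors' deposited table. A doubling was reached by 3 of 33 members in the higher direction (9.1%; Fgf20, Fgf2 and Fgf12) and by 1 of 33 in the lower (Fgfr1). Over all genes the shares were 7.23% and 3.78%, so at a doubling the members were near the background in either direction. A region over the gene start was higher at 9 members and lower at 0 (5.42% and 0.667% of all genes), and without regions of 999 bp 1 member was lower (3.85%). Markers of other cell types were again called, with a higher region at 6 of 10 mesoderm and mesothelium, 5 of 10 endothelial and 4 of 9 yolk sac endoderm markers, and their part in these values was not tested. The endothelial ones include Tek, and Sox17 is on both the endothelial and the endoderm list. Of the 12 progenitor markers, Gata2 was higher and Csf1r lower. The endoderm markers called were Krt19, with regions at 3.82 and 1.19, Foxa2 at 1.05, Sox17 at 1.0 and Cdh1 at 0.99 in the authors' deposited table. The Tie2 KO samples are those of the comparison with Tie2 WT, so the values below are given side by side and are no independent repeat.

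Fgf20 again had the largest positive value among members, at chr8:40285702-40287800, with a log2 fold change of 1.24 here and 1.9 against Tie2 WT in the authors' deposited table. Its rank was less extreme here, above 55.9% of the higher regions. For Fgf9 the values were 0.93 here, 0.83 for Tie2 KO against Tie2 WT and -1.11 for Vav KO against Tie2 WT in the authors' deposited table, although the region called here was 4499 bp wide (chr14:58071002-58075500). Fgf3 had 0.91 here and 0.74 against Tie2 WT in the authors' deposited table, at regions that share their first base. Fgf8 was the single member with more than 1 higher region here. Its start had 0.61 (chr19:45741602-45743500) and a region 2017 bp upstream (chr19:45744902-45746400) had 0.83 in the authors' deposited table. Fgf17 had 0.84 and Fgf5 0.68, against 0.94 and 0.73 in the comparison with Tie2 WT, in the authors' deposited table.

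Among receptors, Fgfr4 had a log2 fold change of 0.98, Fgfr2 0.91 and Fgfr3 0.66 in the authors' deposited table, where they had 0.94, 1.07 and 1.0 against Tie2 WT. Fgfr1 departed from the other signalling receptors. Its region 4458 bp upstream of the start, chr8:25513302-25514300, was lower in Tie2 KO, with a log2 fold change of -1.74 and an adjusted p of 1.41e-05, per the authors' deposited table. That is the upstream region that was higher in Vav KO than in Tie2 WT, and it lies 3401 bp away from the region over the start that was higher in Tie2 KO. Fgfrl1 (gene 116701) was also lower in Tie2 KO than in Vav KO, at -0.73 in the authors' deposited table, in a region 728 bp upstream at chr5:108692502-108693500.

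Some ligands were called in the direct comparison and in neither comparison with Tie2 WT. Fgf2 (gene 14173), a broadly acting growth factor for mesoderm and endothelium, had a log2 fold change of 1.14, per the authors' deposited table. Its region, chr3:37347202-37348200, ended 452 bp before the gene start and overlaps the antisense gene Fgf2os. Fgf12 (gene 14167) had 1.03 over its start (chr16:28752402-28753500) and Fgf15 (gene 14170) had 0.90 over its start (chr7:144893802-144897000) in the authors' deposited table. Fgf15 completes the chromosome 7 cluster, of which Fgf3 but not Fgf4 was called here. Fgf21 (gene 56636), a hormone of fasting, had 0.78 in the authors' deposited table, in a region shared with Fut1 and Izumo1 that overlaps the body of Fut1 (chr7:45617102-45618600). Fgf1 (gene 14164), a ligand that binds all signalling FGF receptors, was the lower ligand, at -0.76 in the authors' deposited table (chr18:38930502-38931600). Its region lay 1097 bp upstream of the gene start and overlaps the RefSeq genes Arhgap26 and Gm5820. Of the genes more open in Tie2 KO than in Tie2 WT, Fgf4, Fgf14, Fgf11 and Spry4 had no call here, and whether their change differed between the knockouts is not given by a missing call.

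Other genes of the pathway were counted in the same way. In Tie2 KO against Tie2 WT all protein-coding genes stand at 11.5% higher and 2.51% lower. The transducer and target shares of that comparison rest on 3 genes or fewer. Of 32 genes for co-receptors and heparan sulfate, 9 (28.1%) were near a region more open in Tie2 KO than in Tie2 WT and 0 near a lower one. The largest value was at Sulf1, an enzyme that trims sulfate from heparan sulfate, with a log2 fold change of 2.86, followed by Gpc1 at 1.39, Sdc4 at 1.13 and Sulf2 at 1.06, in the authors' deposited table. Gpc1 and Sdc4 encode cell surface proteoglycans. Of 26 intracellular transducers 1 was higher and 1 was lower (3.8% each), the adaptor gene Frs2 at 0.86 and the ERK pathway kinase gene Map2k2 at -1.06, in the authors' deposited table. Of 14 target and other feedback genes 3 were higher (21.4%) and 0 lower. They were Il17rd, a membrane inhibitor of FGF signalling, at 1.03, Ccnd1 at 0.92 and the phosphatase gene Dusp9 at 0.77, in the authors' deposited table.

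In Vav KO against Tie2 WT the numbers called higher and lower were 1 and 1 of 32 co-receptor and heparan sulfate genes (3.1% each), 1 and 1 of 26 transducers (3.8% each) and 3 and 1 of 14 target genes (21.4% and 7.1%). All protein-coding genes stand at 5.29% higher and 2.59% lower, so the shares of the co-receptor and transducer lists were near the background. The co-receptor list held Gpc5 at 0.95 and Fgfbp3, a carrier of secreted FGFs, at -1.31 in the authors' deposited table. Among transducers Braf, the Raf kinase gene, had 1.43 and Map2k2 had -1.39 in the authors' deposited table. Etv4, an ETS factor that FGF signalling induces, had a log2 fold change of -2.07 in Vav KO against Tie2 WT and 2.19 in Tie2 KO against Vav KO in the authors' deposited table, at a region 4791 bp upstream. The higher target genes were Dusp4 at 0.83, Dusp9 at 0.68 and Ccnd1 at 0.62 in the authors' deposited table.

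In the direct comparison the numbers called higher and lower were 8 and 2 of 32 co-receptor and heparan sulfate genes (25% and 6.2%), 2 and 3 of 26 transducers (7.7% and 11.5%) and 4 and 0 of 14 target genes (28.6% and 0%). All protein-coding genes stand at 11.1% higher and 6.35% lower, so the share of lower co-receptor genes was near the background, and each transducer share rests on 3 genes or fewer. Sulf1 led the co-receptor list at 1.82, with Flrt1, a membrane partner of FGF receptors, at -1.67, Gpc1 at 1.05 and Extl3 and Sulf2 both at 0.94, in the authors' deposited table. Among transducers Braf had -1.16, Ksr1 -0.95 and Frs3 0.92 in the authors' deposited table. Besides Etv4 the target genes were Il17rd at 1.48, Dusp7 at 0.90 and Ccnd1 at 0.70 in the authors' deposited table.

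FGF ligands and receptors stood beside those of other receptor tyrosine kinases as follows, with no test of the difference. All protein-coding genes stand at 11.5% higher and 2.51% lower in Tie2 KO against Tie2 WT. They stand at 5.29% and 2.59% in Vav KO against Tie2 WT, and at 11.1% and 6.35% in Tie2 KO against Vav KO. Of 38 other ligand genes 14 (36.8%) were near a region more open in Tie2 KO than in Tie2 WT, against 40.9% of FGF ligands, and 0 were near a lower one. Values included 1.74 at Ntf3, 1.42 at Egf and 1.15 at Gdnf in the authors' deposited table. Of 34 other receptor kinase genes 11 (32.4%) were higher and 0 lower. They were led by Tek, the driver's own gene, at 2.9, Ror2 at 1.40, Ddr1 at 1.18 and Pdgfra at 1.17 in the authors' deposited table. The count includes Tek, where reads of the transgene cannot be told apart. In Vav KO against Tie2 WT, 7.9% of the other ligands were higher and 2.6% lower, against 9.1% and 9.1% of FGF ligands, and 5.9% of the other receptors were higher and 5.9% lower, against 20% and 0% of FGF receptors. In Tie2 KO against Vav KO, 26.3% of the other ligands were higher and 7.9% lower, against 45.5% and 4.5% of FGF ligands. The other receptors stood there at 38.2% higher and 8.8% lower, against 60% and 40% of the 5 FGF receptors.

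**Figure D4:**
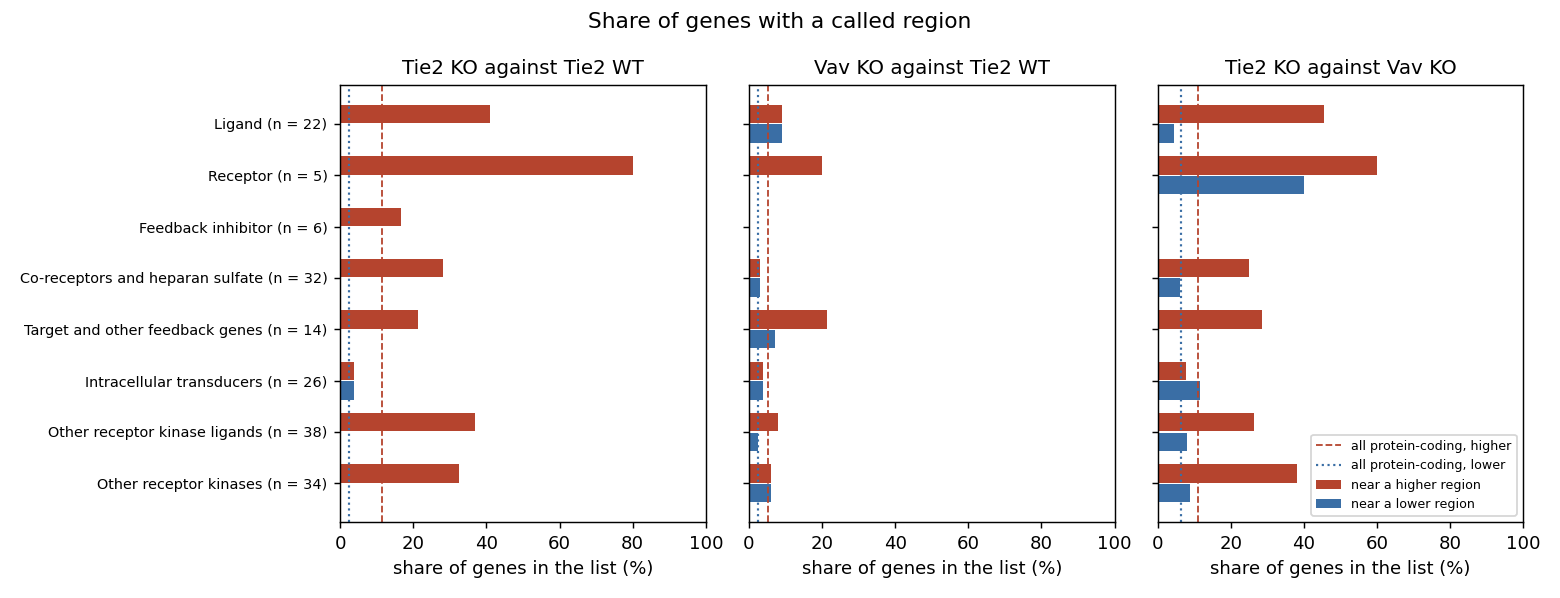
Share of genes (x axis, %) near a higher (red) or lower (blue) region in each comparison, for the FGF genes by role, other pathway genes and other receptor kinase families (y axis, with the number of genes); dashed and dotted lines give the shares over all protein-coding genes. In Tie2 KO against Tie2 WT the bars reach 40.9% for FGF ligands and 80% for receptors but 3.8% for transducers, where all protein-coding genes stand at 11.5%.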

How the data were processed

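Accessibility was measured by ATAC-seq in 14 samples, and each library was amplified with 14 PCR cycles, per the labels' protocols. The deposited regions, 6 lists in all, each carry the authors' log2 fold change with its adjusted p-value, as named in the columns. No absolute log2 fold change in them was under 0.58, and no adjusted p-value was over 0.0479. List names were taken to mean Tie2 KO, Tie2 WT and Vav KO. Without roles, the submitters' processing notes name mm10, Bowtie2, HOMER 4.10, MACS2 2.1.2, Picard, SAMtools 1.3.1 and FastQC. The scaling of libraries, any shift of reads for the Tn5 cut and the test behind the calls were not given in the sources used here.

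Members were matched by symbol and counted once per comparison and direction, with no test, since the lists hold no value per sample. Shares over all genes use the 21896 protein-coding genes of the RefSeq table of GRCm38.p6, as the full set of regions tested was not analysed here. The counting was tested on simulated data. Members, pathway lists, markers and FGF subfamilies were chosen with earlier results of these data known. Named members are all those with a region, and up to 4 genes with the largest absolute change were named from each other pathway list and comparison, except that some genes this rule picks are not reported here. Promoters were printed for up to 6 members with a region over the start and up to 2 with none. Alternatives used an adjusted p under 0.01, an absolute log2 fold change of at least 1, regions over the gene start, regions paired with 1 gene, regions wider than 999 bp, matching by gene identifier and counts of regions. Python 3.11.15 and pandas 2.3.3 were used.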

Additional observations from a re-analysis of the deposited data

Results flagged for a closer look

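The genes below were called in the authors' direct comparison of the knockouts and also against Tie2 WT. Those comparisons share samples, so being called in both is no result, and the direct value alone bears on a difference between Tie2 KO and Vav KO. Log2 fold changes of Tie2 KO against Vav KO in the authors' deposited table were 1.24 at Fgf20, 0.98 at Fgfr4, 0.93 at Fgf9, 0.91 at both Fgf3 and Fgfr2, 0.84 at Fgf17, 0.68 at Fgf5, 0.66 at Fgfr3 and 0.61 at Fgf8. At the upstream region of Fgfr1 the value was -1.74 in the authors' deposited table. For Fgf9 the values against Tie2 WT, with shared controls, were 0.83 in Tie2 KO and -1.11 in Vav KO in the authors' deposited table. The knockouts also differ in Cre line, which cannot be told apart from the time and cell of deletion, and Vav WT was not used in any list.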

How the results depend on the processing

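No paired analysis was possible because the lists carry no value per sample, and for the same reason no replicate could be left out. Of 55 values recomputed under the alternatives, 37 stayed within 1.5 times the count or within 0.1 of the median log2 fold change, and all of those with an adjusted p under 0.01 or with matching by gene identifier did. The 0 members near a region lower in Tie2 KO than in Tie2 WT could not rise under rules that only drop regions. Matching by gene identifier, which could have changed that count, also gave 0. No member region had an adjusted p over 0.0011, so the rule of 0.01 dropped none of them. The values fixed in this way are among the 37 and are no check. Each alternative below keeps fewer regions by construction. With an absolute log2 fold change of at least 1, members near a higher region fell to 6 in Tie2 KO against Tie2 WT (6.2% of all protein-coding genes passed that rule), 3 in Tie2 KO against Vav KO (7.23%) and 1 in Vav KO against Tie2 WT (3.79%). As shares of the 33 members, the counts of 3 and 1 were near those background shares. Members lower in Tie2 KO than in Vav KO fell to 1, and medians were 1.16 against Tie2 WT and 1.085 against Vav KO. With regions over the gene start the median of Tie2 KO against Tie2 WT was 0.82, and 0 members were lower in Tie2 KO than in Vav KO. With regions wider than 999 bp that count was 1. In Vav KO against Tie2 WT, 1 member was higher with regions over the gene start, with regions paired with 1 gene and with wider regions, and 1 was lower with regions over the start and with wider regions. Its median of 0.64 over 5 regions turned to -1.11 with the fold change rule, -0.235 over gene starts, -1.11 with regions paired with 1 gene and -0.36 with wider regions, so it has no stable sign. How many regions overlap between comparisons is not counted because they share samples, and the alternative for that count was not run.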
